A study of Homo sapiens with 21 samples.

Results

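The aldo-keto reductases of the AKR1 family were followed across 21 RNA-seq libraries of BT-549 cells, an established triple-negative breast cancer line. The 6 genes are AKR1C1, AKR1C2, AKR1C3, AKR1B1, AKR1B10 and AKR1A1, found by matching Ensembl identifiers to symbols among the 42339 genes counted. They were chosen by the counts of AKR1C2 in the same data, which were 0 in 2D cells and 668 or more in every mammosphere library, so the values of these genes in 3D against 2D cells are given as a description and carry no test. Each of 7 groups had 3 libraries. The 2D cells were wild-type monolayers, and the 3D cells were wild-type mammospheres of serial passage 6, untreated or treated with 0.75 μM GO-203, a peptide inhibitor of MUC1-C. The tet-MUC1shRNA mammospheres, also of passage 6, and the tet-MYCshRNA mammospheres of passage 8 carried a doxycycline (DOX)-inducible shRNA and received vehicle (0.1% DMSO) or 500 ng/ml DOX. Both tet lines were BT-549 cells transduced and selected with puromycin. No cells without an shRNA against MUC1 or MYC received DOX, so the effect of DOX and that of the induced shRNA cannot be told apart within a line. Between the lines, passage cannot be told apart from the shRNA.

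Library totals ran from 38026597 to 99751717 counts, and the 21 pairs of replicate libraries differed by 4.36 to 52.8 in chi-square per degree of freedom, where sampling noise alone would give about 1. The 2 highest values, 36.3 and 52.8, were those of tet-MYCshRNA DOX replicate 1 with the other libraries of its group, whose remaining pair was at 19.5. MUC1 fell from 90.3 ± 9.64 to 21.4 ± 1.81 CPM (counts scaled to a common library size; SD, n = 3) with DOX in the tet-MUC1shRNA line, and MYC fell from 414 ± 26.6 to 273 ± 27.2 CPM in the tet-MYCshRNA line. In those tet-MYCshRNA libraries MUC1 rose from 69.0 ± 3.84 to 167 ± 27.7 CPM (edgeR, adjusted p = 5.06e-06), and on MUC1 silencing MYC rose from 245 ± 8.54 to 286 ± 11.6 CPM (adjusted p = 5.01e-05). With GO-203 MUC1 rose from 207 ± 21.8 to 255 ± 10.2 CPM (adjusted p = 0.00191). Of 6 epithelial markers, the summed level was 0.386 to 3.68 CPM in every library, although the labels call the tissue epithelial breast, whereas 5 mesenchymal markers summed to 2239 to 2265 CPM in 2D cells and to 7872 to 15768 CPM in mammospheres. In 3D against 2D cells FN1 (log2 change 3.89), ZEB1 (1.14) and VIM (0.12) were higher and CDH2 (-3.11) and SNAI2 (-1.33) lower, and their part in the results was not tested. The 3 leukocyte markers summed to at most 1.66 CPM. Of the 3 endothelial markers, CDH5 was at 0 in 6 of 7 groups, while the list, mostly PECAM1 in mammospheres, summed to at most 0.205 CPM in 2D cells and to 2.73 to 10.0 CPM in mammospheres; its part in the results was not tested.

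Aldo-keto reductases use NADPH to turn aldehydes and ketones into alcohols. The AKR1C enzymes reduce steroids and prostaglandins, and among them AKR1C1 inactivates progesterone, AKR1C2 inactivates dihydrotestosterone and AKR1C3 makes testosterone and prostaglandin F. AKR1B1, or aldose reductase, opens the polyol pathway by reducing glucose to sorbitol, AKR1B10 reduces retinal and lipid aldehydes, and AKR1A1 is the broadly expressed aldehyde reductase. AKR1C1 to AKR1C3 and AKR1B10 are widely used as readouts of NRF2, the transcription factor that answers oxidative stress.

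The AKR1C genes lie side by side on chromosome 10 and are close copies, which bears on how their reads can be told apart. In GENCODE release 44 (GRCh38), AKR1C1 lies at chr10:4963253-4983283 on the plus strand, AKR1C2 at chr10:4987775-5018031 on the minus strand and AKR1C3 at chr10:5035354-5107686 on the plus strand. AKR1B1 lies at chr7:134442356-134459284 on the minus strand, AKR1B10 at chr7:134527567-134541412 and AKR1A1 at chr1:45550543-45570049, both on the plus strand. No exon of these 6 genes overlapped an exon of another gene on either strand. Over the coding sequence of 972 bases, AKR1C2 differed from AKR1C1 at 19 bases and AKR1C3 at 83 bases, which is 98.0% and 91.5% identity. The first 120 coding bases are shown from the ATG, because they give the scale on which a read is assigned to one AKR1C gene or another, and capitals mark the bases that differ from AKR1C1.
AKR1C1: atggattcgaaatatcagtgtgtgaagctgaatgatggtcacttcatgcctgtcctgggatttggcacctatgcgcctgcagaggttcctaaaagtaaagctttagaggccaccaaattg
AKR1C2: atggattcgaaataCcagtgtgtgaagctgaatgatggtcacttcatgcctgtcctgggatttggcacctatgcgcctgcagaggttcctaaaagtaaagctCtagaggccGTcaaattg
AKR1C3: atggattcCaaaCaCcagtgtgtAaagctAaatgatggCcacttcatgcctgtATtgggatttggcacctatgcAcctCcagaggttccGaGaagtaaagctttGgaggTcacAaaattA
AKR1C2 differed from AKR1C1 at 4 bases of this stretch and AKR1C3 at 16. Of all windows of 100 bases on the main (canonical) transcript, 27.8% of those of AKR1C2 also occurred in another AKR gene or pseudogene, chiefly AKR1C1, against 12.6% for AKR1C1 and 7.82% for AKR1C3, and for AKR1B1 and AKR1A1 there were none. With windows of 50 bases these shares were 47.3%, 22.7% and 18.6% for the AKR1C genes and 4.95% for AKR1B1, of which 8 pseudogenes carry the name. How the counting treated reads that match several genes is not given in the sources used here, so the split of reads between AKR1C1 and AKR1C2 is less certain than their sum.

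The starts of the 3 AKR1C genes are related as well. RefSeq promoter windows (GRCh38.p14, 250 bases before the start to 50 after it) were found for AKR1C1, AKR1C2, AKR1C3, AKR1B1 and AKR1A1. Aligned with AKR1C1, the AKR1C2 window was identical at 288 of 292 bases and the AKR1C3 window at 227 of 291, and none of the 250 upstream bases of AKR1C2 differed from the AKR1C1 base aligned with it. The upstream 250 bases of AKR1C1 (chr10:4963165-4963414, plus strand) and of the first AKR1C3 start (chr10:5048531-5048780, plus strand) are given because AKR1C3 parted from AKR1C1 in the comparisons with DOX in the tet-MYCshRNA line, and capitals mark where AKR1C3 differs from the aligned AKR1C1 base or has an inserted base (1 base). The first 8 bases of the AKR1C3 stretch had no AKR1C1 base aligned with them and are left in lower case, and 8 AKR1C1 bases skipped by the alignment of the windows are not marked. Part of the AKR1C1 stretch lies in the first exon of another AKR1C1 transcript, for which no coding sequence is annotated.
AKR1C1: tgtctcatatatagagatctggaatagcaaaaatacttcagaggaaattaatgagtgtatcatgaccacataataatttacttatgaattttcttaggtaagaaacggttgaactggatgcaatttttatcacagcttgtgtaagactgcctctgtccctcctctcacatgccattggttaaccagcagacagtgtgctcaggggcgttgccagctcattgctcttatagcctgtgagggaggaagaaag
AKR1C3: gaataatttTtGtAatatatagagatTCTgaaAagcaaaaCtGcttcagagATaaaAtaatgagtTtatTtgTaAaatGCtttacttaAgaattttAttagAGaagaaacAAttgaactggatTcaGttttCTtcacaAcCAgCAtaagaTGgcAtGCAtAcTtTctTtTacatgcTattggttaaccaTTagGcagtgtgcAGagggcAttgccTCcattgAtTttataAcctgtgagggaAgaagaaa
Both strands of each window were searched for the antioxidant response element core TGACNNNGC, the AP-1 site TGACTCA, the E-box CACGTG and the CCAAT box, with no match overlapping one of another motif. On the minus strand, the CCAAT letters were found in the windows of the 3 genes, 77 bases before the start in AKR1C1, 81 in AKR1C2 and 73 in the first AKR1C3 window, where 34.6% of 35116 promoter windows hold this motif on either strand, and AKR1B1 held it 98 bases before its first start on the plus strand. AKR1A1 held an E-box 9 bases before its start, a motif present in 7.26% of windows. The letters of TGACNNNGC (in 13.3% of windows) and TGACTCA (in 4.95%) did not occur in the windows of these 5 genes, which says nothing about sites farther away.

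AKR1C2 had no counts in the 3 libraries of 2D cells. In 3D cells it had 2097, 2080 and 2817 counts, or 43.5, 40.6 and 43.7 CPM. Taking 3 counts over the 2D group as the floor, its mean of 42.6 ± 1.73 CPM (SD, n = 3) in 3D cells was at least 2288-fold higher. AKR1C2 was detected in all of the mammosphere libraries, and its lowest group was vehicle-treated tet-MYCshRNA mammospheres, with 12.1, 10.6 and 10.9 CPM, still at least 602-fold higher than in 2D cells. The order of the group means was 3D, GO-203, tet-MUC1shRNA with vehicle and with DOX, tet-MYCshRNA with DOX and with vehicle, and 2D. The ranges of tet-MUC1shRNA mammospheres with DOX overlapped those of both neighbours in this order, and the other neighbours did not overlap.

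**Figure D1:**
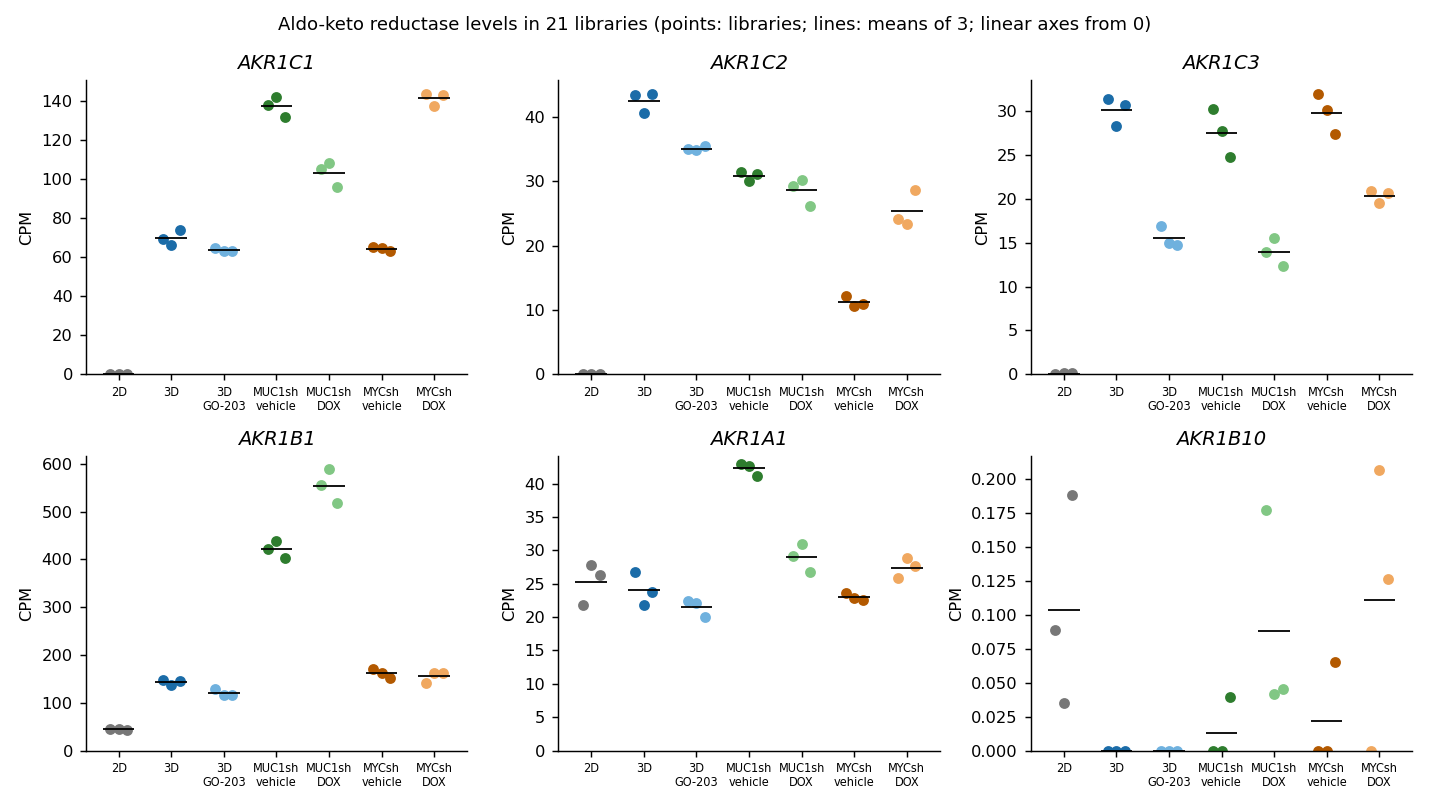
Levels of the 6 genes in CPM on linear axes from 0, with a point for each of the 21 libraries and a line at each mean of 3. AKR1C1, AKR1C2 and AKR1C3 sit near 0 in 2D cells and above 10 CPM in every mammosphere library, AKR1B1 is highest in the tet-MUC1shRNA line, and AKR1B10 stays below 0.21 CPM.

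AKR1C1 and AKR1C3 were close to absent from 2D cells too, with 2, 14 and 18 counts for AKR1C1 and 0, 8 and 6 for AKR1C3. AKR1C1 reached 69.0, 66.1 and 73.7 CPM in 3D cells, and the ratio of the group means was 351. AKR1C3 reached 31.3, 28.3 and 30.8 CPM, and this ratio was 374. Every mammosphere library lay above every 2D library for each of them. AKR1C4, the liver form of the cluster, had 0 counts in 2D cells and 6 to 39 counts in each mammosphere library.

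The 3 abundant AKR1C genes did not rank the mammosphere groups alike. AKR1C1 was highest in tet-MYCshRNA mammospheres with DOX (141 ± 3.52 CPM) and in tet-MUC1shRNA mammospheres with vehicle (137 ± 5.26 CPM), whose ranges overlapped. It was lowest among mammospheres in vehicle-treated tet-MYCshRNA (64.3 ± 1.23 CPM) and in GO-203-treated 3D cells (63.8 ± 0.923 CPM), whose ranges overlapped as well. AKR1C3 was highest in 3D cells (30.1 ± 1.62 CPM) and in the vehicle-treated mammospheres of the tet-MYCshRNA (29.8 ± 2.28 CPM) and tet-MUC1shRNA lines (27.6 ± 2.71 CPM), and neighbours in this order overlapped. All of the treated groups lay below these for AKR1C3, at 20.4 ± 0.693 CPM with DOX in the tet-MYCshRNA line, 15.5 ± 1.20 CPM with GO-203 and 13.9 ± 1.60 CPM with DOX in the tet-MUC1shRNA line, the last of which overlapped with GO-203.

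AKR1B1 was expressed in 2D cells, at 44.4, 45.3 and 43.8 CPM. It stood at 148, 137 and 145 CPM in 3D cells, a ratio of means of 3.23, with no overlap between the groups. The fitted log2 fold change was 1.69 ± 0.06 (SE). The tet-MUC1shRNA line differed from all other mammospheres, with 421 ± 17.2 CPM under vehicle and 554 ± 35.4 CPM with DOX, whereas the remaining mammosphere groups had means of 121 to 162 CPM. AKR1A1 had 21.8, 27.8 and 26.3 CPM in 2D cells and 26.7, 21.8 and 23.7 CPM in 3D cells. These ranges overlapped, and the fitted log2 difference was -0.08 ± 0.10 (SE). AKR1A1 was highest in vehicle-treated tet-MUC1shRNA mammospheres, at 42.3 ± 0.951 CPM, and the other groups had means between 21.5 and 28.9 CPM.

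AKR1B10 was at the edge of detection. It had 4, 2 and 11 counts in the 2D libraries and 0 in each of the 3D libraries, so that its 2D mean of 0.104 CPM was at least 5.67-fold higher than the floor of 3 counts over the 3D group. The count table holds no AKR1B10 value for the GO-203 libraries, which was read as 0. The tet-MUC1shRNA libraries had 0, 0 and 2 counts with vehicle and 10, 3 and 2 with DOX. The tet-MYCshRNA libraries had 0, 0 and 4 with vehicle and 0, 12 and 8 with DOX, and the ranges of the tet-MYCshRNA groups overlapped. In the tet-MUC1shRNA line the highest vehicle library (0.0393 CPM) and the lowest DOX library (0.0418 CPM) had 2 counts each. AKR1B10 did not pass the filter on low counts in any comparison, so 5 of the 6 genes were tested. With all 21 libraries in one fit it was tested, and on MYC silencing it was called there (log2 change 2.50 ± 1.22, edgeR adjusted p = 0.095). In 3D against 2D cells, 32.0% of 19190 genes were called higher and 31.7% lower at an adjusted p below 0.1, and 4 of the 5 genes had a fold change above 0, a count that the choice of genes fixed in part. Without 2D replicate 2 or without 3D replicate 2 the count was 5, as the fold change of AKR1A1 was then 0.0010 or 0.0021 on the log2 scale.

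Levels of different genes were compared per length, as CPM per kilobase of all annotated exons. AKR1B1 was the highest of the 5 genes in all 7 groups, from 12.2 ± 0.209 CPM per kilobase in 2D cells to 152 ± 9.70 in tet-MUC1shRNA mammospheres with DOX. In 3D cells it stood at 39.3 ± 1.57 CPM per kilobase. AKR1C1 (7.94 ± 0.434), AKR1A1 (7.71 ± 0.797), AKR1C3 (7.70 ± 0.414) and AKR1C2 (7.0 ± 0.285) lay close together there. The order among the AKR1C genes depended on the length used. With the canonical transcript in place of all exons, AKR1C3 led them in 3D cells at 25.4 ± 1.36 CPM per kilobase, followed by AKR1C2 at 13.2 ± 0.539 and AKR1C1 at 10.6 ± 0.582, and AKR1B1 was still the highest at 105 ± 4.20.

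To examine what depends on MUC1, tet-MUC1shRNA mammospheres with DOX were compared with those given vehicle. AKR1C3, AKR1A1 and AKR1C1 fell, AKR1B1 rose, and AKR1C2 did not pass the test. Thus 3 of the 5 tested genes fell and 1 rose, where 31.6% of 19220 genes were called lower and 30.7% higher. AKR1C3 had 30.2, 27.7 and 24.8 CPM with vehicle and 13.9, 15.5 and 12.3 CPM with DOX. The groups did not overlap, and the log2 fold change was -0.95 ± 0.09 (SE; edgeR quasi-likelihood test, adjusted p = 5.37e-09). AKR1C1 went from 138, 142 and 132 CPM to 105, 108 and 95.9 CPM, a log2 change of -0.39 ± 0.05 (adjusted p = 7.65e-07), again without overlap.

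AKR1C2, the neighbour of AKR1C1 with the near-identical coding sequence shown above, had 31.5, 30.1 and 31.1 CPM with vehicle and 29.3, 30.3 and 26.2 CPM with DOX. These ranges overlapped, and the log2 difference of -0.09 ± 0.06 did not pass (adjusted p = 0.26); scaled by library size alone it was 0.08. The 4 AKR1C genes added together fell by 0.40 ± 0.05 on the log2 scale (adjusted p = 3.52e-07). Scaled by library size alone, the log2 change was -0.24 for the sum and -0.22 for AKR1C1, and both still passed. AKR1B1 moved the other way. It had 422, 439 and 404 CPM with vehicle and 556, 589 and 518 CPM with DOX, with no overlap and a log2 change of 0.42 ± 0.05 (adjusted p = 1.18e-07). AKR1A1 fell from 43.0, 42.6 and 41.2 CPM to 29.1, 30.9 and 26.8 CPM, a log2 change of -0.52 ± 0.06 (adjusted p = 2.41e-07), with no overlap. In the same comparison 3 of 4 tested epithelial markers rose, with KRT8 from 0.0419 to 1.34 CPM on average. Of the 5 mesenchymal markers, CDH2 (log2 change 2.67) and VIM (0.18) rose and ZEB1 (-1.41), SNAI2 (-0.76) and FN1 (-0.51) fell. The endothelial PECAM1 fell as well (-0.43), and the part of these lists in these results was not tested.

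**Figure D2:**
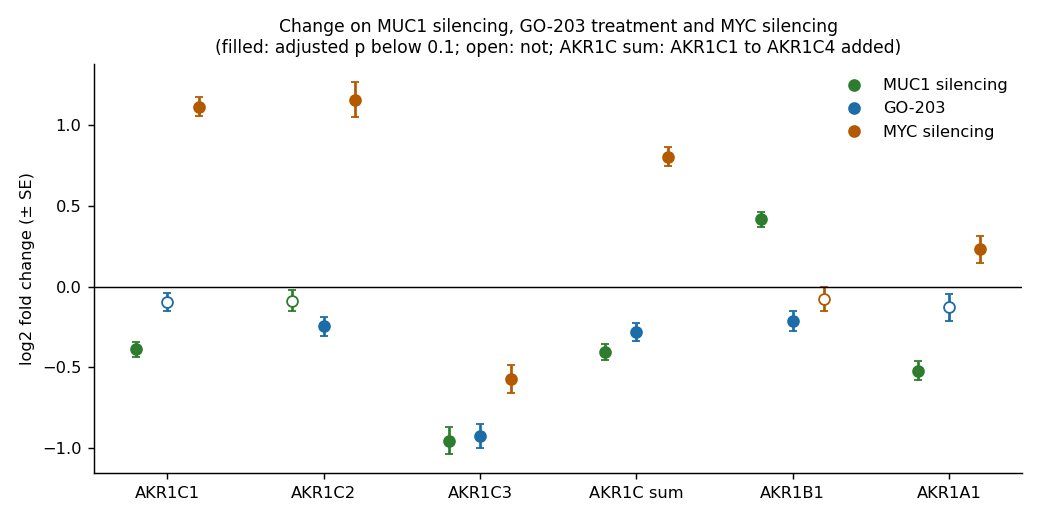
Log2 fold change with its SE (bars) for 5 genes and for the AKR1C sum on MUC1 silencing, GO-203 treatment and MYC silencing, each from 6 libraries; filled points passed at an adjusted p below 0.1. AKR1C3 lies below 0 in the 3 comparisons, between -0.95 and -0.57, while AKR1C1 and AKR1C2 lie above 1 on MYC silencing only.

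GO-203 was the pharmacological counterpart, with treated 3D cells compared with the untreated 3D cells that also served in the comparison with 2D cells. AKR1C3, AKR1C2 and AKR1B1 fell, and AKR1C1 and AKR1A1 did not pass. Thus 3 of 5 genes fell and 0 rose, where 12.9% of 18488 genes were called lower and 11.1% higher. AKR1C3 went from 31.3, 28.3 and 30.8 CPM to 16.9, 15.0 and 14.7 CPM. The groups did not overlap, the log2 change was -0.93 ± 0.08 (adjusted p = 1.31e-08), and AKR1C3 was the 254th gene counted from the largest fall. AKR1C2 went from 43.5, 40.6 and 43.7 CPM to 35.0, 34.8 and 35.5 CPM, a smaller log2 change of -0.25 ± 0.06 (adjusted p = 0.00391), also without overlap.

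AKR1C1 had 69.0, 66.1 and 73.7 CPM without and 64.9, 63.3 and 63.2 CPM with GO-203. Although these ranges did not overlap, the log2 difference of -0.09 ± 0.06 did not pass (adjusted p = 0.301). The AKR1C sum fell by 0.28 ± 0.06 on the log2 scale (adjusted p = 0.00116). AKR1B1 went from 148, 137 and 145 CPM to 130, 117 and 117 CPM, a log2 change of -0.21 ± 0.06 (adjusted p = 0.0151). AKR1A1 had 22.5, 22.1 and 20.1 CPM with GO-203, which overlapped with 3D cells, and its log2 difference of -0.13 ± 0.08 did not pass (adjusted p = 0.332). Of the marker lists, SNAI2 of the 5 mesenchymal markers rose with GO-203 (log2 change 0.60) and 0 of 3 tested epithelial markers passed; their part in these results was not tested.

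MYC silencing was studied in the tet-MYCshRNA line. Here AKR1C1 and AKR1C2 more than doubled while AKR1C3 fell, so the cluster split. AKR1A1 also passed with a small rise, giving 3 of 5 genes that rose and 1 that fell, where 30.3% of 19951 genes were called higher and 28.1% lower. AKR1C1 went from 65.4, 64.5 and 63.0 CPM with vehicle to 144, 137 and 143 CPM with DOX, a log2 change of 1.12 ± 0.06 (adjusted p = 1.93e-07). AKR1C2 went from 12.1, 10.6 and 10.9 CPM to 24.1, 23.4 and 28.6 CPM, a log2 change of 1.16 ± 0.11 (adjusted p = 9.02e-06). Neither pair of groups overlapped, and the AKR1C sum rose by 0.81 ± 0.06 (adjusted p = 1.84e-06). Without DOX replicate 1, the library in the pairs of highest chi-square, the log2 changes were 1.10 for AKR1C1, 1.19 for AKR1C2 and -0.59 for AKR1C3, and all 3 still passed.

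AKR1C3 went the opposite way in the same libraries, from 32.0, 30.1 and 27.5 CPM to 20.9, 19.6 and 20.6 CPM. Its log2 change was -0.57 ± 0.09 (adjusted p = 0.000336), without overlap. AKR1B1 had 171, 163 and 151 CPM with vehicle and 141, 161 and 163 CPM with DOX. These overlapped, and the log2 difference of -0.08 ± 0.07 did not pass (adjusted p = 0.403). AKR1A1 went from 23.7, 22.8 and 22.5 CPM to 25.8, 28.8 and 27.6 CPM, a log2 change of 0.23 ± 0.08 (adjusted p = 0.0385). This call was lost in 4 of the 6 fits that left out 1 library, with adjusted p between 0.1 and 0.179 (without vehicle replicate 1, 2 or 3 or DOX replicate 2), and without a low-count filter (0.191). In this comparison FN1 (log2 change 1.25), SNAI2 (0.41), CDH2 (0.22) and ZEB1 (0.16) of the 5 mesenchymal markers rose and VIM (-0.18) fell. CLDN4, the epithelial marker that could be tested, rose by 1.25, and the endothelial PECAM1 by 0.45; their part in these results was not tested.

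The ratio of AKR1C3 to AKR1C1 counts within a library does not depend on library scaling. It was 0.418 to 0.454 in 3D cells and 0.232 to 0.261 in GO-203-treated 3D cells. In the tet-MUC1shRNA line it was 0.188 to 0.219 with vehicle and 0.129 to 0.144 with DOX. The widest shift was in the tet-MYCshRNA line, from 0.436 to 0.489 with vehicle to 0.143 to 0.145 with DOX. The treated and untreated libraries did not overlap in any of these pairs. The ratio of AKR1C2 to AKR1C1 differed between the lines. It was 0.592 to 0.631 in 3D cells, 0.540 to 0.561 with GO-203 and 0.164 to 0.280 in the tet lines. It did not overlap in the tet-MUC1shRNA line, from 0.212 to 0.237 with vehicle to 0.274 to 0.280 with DOX. With and without DOX it overlapped in the tet-MYCshRNA line (0.168 to 0.200 and 0.164 to 0.185).

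**Figure D3:**
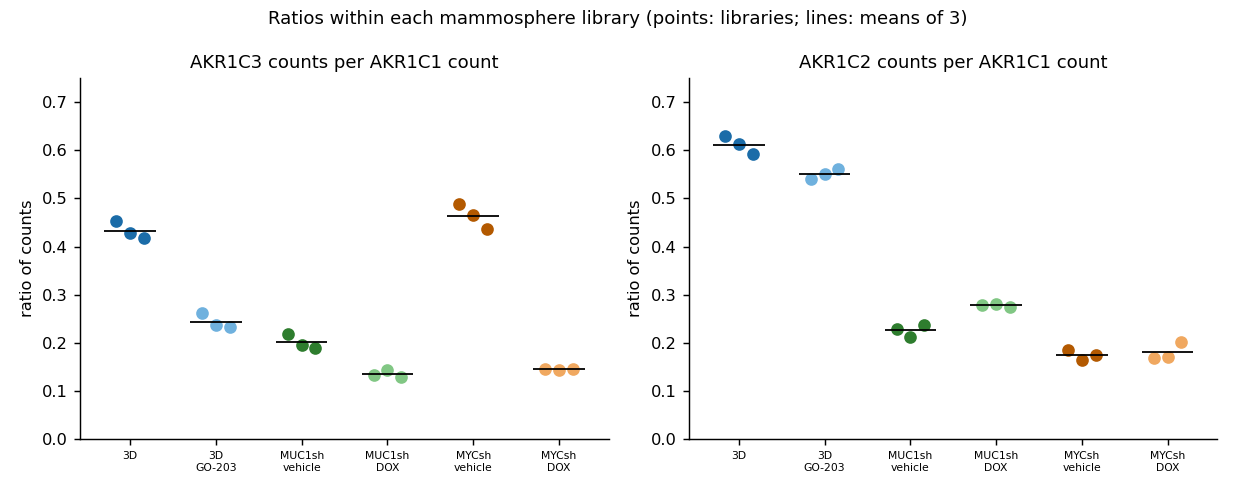
Counts of AKR1C3 (left) and AKR1C2 (right) per count of AKR1C1 in each of 18 mammosphere libraries, with a line at each mean of 3; 2D cells are left out because they had at most 18 AKR1C1 counts. The AKR1C3 ratio is lower in each treated group than in its untreated pair, and the AKR1C2 ratio is above 0.5 in 3D cells and below 0.3 in the tet lines.

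Whether DOX acted differently in the tet-MUC1shRNA and tet-MYCshRNA lines was tested as an interaction over 12 libraries. All 5 tested genes passed, where 52.9% of 21585 genes were called in either direction. The effect on AKR1C1 was lower by 1.52 ± 0.08 on the log2 scale in the tet-MUC1shRNA line, given as -1.52 for that line minus the tet-MYCshRNA line (adjusted p = 4.42e-11). For AKR1C2 the difference was -1.26 ± 0.13 (adjusted p = 2.17e-07) and for AKR1A1 -0.77 ± 0.10 (adjusted p = 7.61e-06). For AKR1B1 it was 0.48 ± 0.09 (adjusted p = 0.000362). AKR1C3, which fell in both lines, had the smallest difference, at -0.40 ± 0.14 (adjusted p = 0.0235), and this call was lost with library size alone as the scaling (-0.20, adjusted p = 0.229).

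The effect of GO-203 was compared with that of MUC1 silencing over the 12 libraries of both, which share none. Of the 5 genes 3 passed, where 44.9% of 20829 genes were called in either direction. AKR1B1, which fell with GO-203 and rose on silencing, differed by -0.64 ± 0.08 (GO-203 minus silencing; adjusted p = 1.15e-07). AKR1A1 differed by 0.39 ± 0.10 (adjusted p = 0.00359) and AKR1C1 by 0.29 ± 0.08 (adjusted p = 0.00397). Both fell on silencing and did not pass with GO-203. With library size alone the difference of AKR1A1 was 0.23 (adjusted p = 0.0742). For AKR1C3 the difference was 0.03 ± 0.12 (adjusted p = 0.897), and for AKR1C2 it was -0.16 ± 0.08 (adjusted p = 0.132). The call of AKR1C1 was lost with library size alone (0.14, adjusted p = 0.147), and AKR1C2 passed with library size alone (adjusted p = 0.00227) and without tet-MUC1shRNA DOX replicate 3 (-0.22, adjusted p = 0.0459). The values of AKR1C3 show no difference beyond the error but do not show that the treatments acted alike.

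The genes whose levels followed each AKR gene most closely were ranked by Pearson correlation of log2(CPM + 1), among 12287 genes with a mean count of at least 100. These are descriptions across libraries that share their group, culture condition and depth. Over the 21 libraries AKR1C1 was nearest to FN1 (fibronectin, r = 0.99), SRPX (r = 0.99) and DNER (r = 0.99), and AKR1C2 to EMP1 (r = 0.99), INSR (the insulin receptor, r = 0.99) and SQOR (r = 0.99). AKR1C3 was nearest to IL13RA2 (r = 0.99), RGS17 (r = 0.99) and PLEKHA2 (r = 0.98). Spearman correlations of the same AKR1C pairs were lower, between 0.76 and 0.91. AKR1B1 was nearest to IRAK2 (r = 0.99), NECAP1 (r = 0.99) and GPR4 (r = 0.98), and AKR1A1 to KCND1 (r = 0.95), QARS1 (r = 0.94) and CERS2 (r = 0.94).

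Within the 18 mammosphere libraries other genes took these places for the AKR1C genes and AKR1B1. AKR1C1 was nearest to LINC00632 (r = 0.98), GNPDA1 (r = 0.98) and SDCBP (r = 0.98), and AKR1C2 to COX7A1 (r = 0.94), FOXO3 (r = 0.94) and MGC27382 (r = 0.93). AKR1C3 had looser neighbours, STEAP3 (r = 0.92), ACIN1 (r = 0.90) and MAD1L1 (r = 0.90). AKR1B1 was nearest to GDF15 (r = 0.99), RNF144B (r = 0.98) and the pseudogene PSMC1P1 (r = 0.98), and AKR1A1 to SLC39A7 (r = 0.97), KCND1 (r = 0.96) and TBC1D10B (r = 0.96). No gene was among the 3 nearest of more than 1 AKR gene, and KCND1 was named for AKR1A1 in both sets of libraries. With Spearman correlation in place of Pearson, 2 of the 30 pairs kept a place among the nearest 3, QARS1 and SLC39A7 with AKR1A1.

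Genes with related roles gave the setting. Of 11 other aldo-keto reductases and their potassium channel relatives, 7 were tested in 3D against 2D cells, where 2 were higher and 1 lower. On MUC1 silencing 4 of 8 rose and 2 fell. AKR7A2, the aflatoxin aldehyde reductase, fell by 0.90 ± 0.07 on the log2 scale (adjusted p = 7.67e-10), and AKR1C4 (-0.87, mean count 29.2) fell too. The rises were those of the potassium channel relatives KCNAB1 (0.55 ± 0.10, adjusted p = 4.75e-05), KCNAB2 (0.41) and KCNAB3 (1.16, mean count 28.7) and of AKR7L (0.83, mean count 30.7). With GO-203 1 of 8 rose and 0 fell, and with MYC silencing 1 of 8 rose, KCNAB2, by 1.15 ± 0.14 (adjusted p = 5.05e-05). The median log2 change of this list on MUC1 silencing was 0.32, against 0.02 for all genes, and with GO-203 and MYC silencing it was 0.21 and 0.09, against 0.02 and 0.01. Over all genes, 32.0% were higher and 31.7% lower in 3D cells, 30.7% rose and 31.6% fell on MUC1 silencing, 11.1% rose and 12.9% fell with GO-203, and 30.3% rose and 28.1% fell on MYC silencing.

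Among 15 carbonyl and retinal reductases, all tested, 4 rose and 9 fell on MUC1 silencing, with a median of -0.42, where 30.7% of all genes rose and 31.6% fell. DHRS3, a retinal reductase, fell by 1.55 ± 0.07 (adjusted p = 2.94e-14) but rose by 0.18 ± 0.06 with GO-203 (adjusted p = 0.0488) and by 0.39 ± 0.12 on MYC silencing (adjusted p = 0.0216), and DHRS9, a retinol dehydrogenase, rose by 1.03 ± 0.11 (adjusted p = 8.12e-08). In 3D against 2D cells 9 were higher and 3 lower (32.0% and 31.7% of all genes), and the largest difference in the list was that of DHRS9, at 8.03 ± 0.26 on the log2 scale (adjusted p = 1.6e-13). With GO-203 2 rose and 2 fell (11.1% and 12.9% of all genes), with RDH10, which makes retinal, up by 1.23 ± 0.06 (adjusted p = 1.6e-12). On MYC silencing 6 rose and 4 fell (30.3% and 28.1% of all genes), and NQO1, a quinone reductase and NRF2 target, rose by 1.59 ± 0.07 (adjusted p = 6.68e-08), whereas it fell by 0.17 ± 0.05 on MUC1 silencing (adjusted p = 0.00559).

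The polyol and fructose genes surround AKR1B1. SORD, which turns sorbitol into fructose after AKR1B1, fell by 2.36 ± 0.10 on MYC silencing (adjusted p = 3.8e-08), where AKR1B1 did not pass, by 0.74 ± 0.06 on MUC1 silencing (adjusted p = 1.63e-09), where AKR1B1 rose, and by 0.32 ± 0.06 with GO-203 (adjusted p = 0.000693), where AKR1B1 fell. SLC2A5, the fructose transporter, was higher in 3D cells by 5.02 ± 0.27 (adjusted p = 1.01e-10), fell by 3.25 ± 0.15 on MUC1 silencing (adjusted p = 8.35e-14) and rose by 1.61 ± 0.17 on MYC silencing (adjusted p = 1.75e-05). HK2, the hexokinase that competes with AKR1B1 for glucose, fell by 2.09 ± 0.08 on MUC1 silencing (adjusted p = 5.23e-15), by 0.58 ± 0.06 with GO-203 (adjusted p = 9.56e-07) and by 1.45 ± 0.07 on MYC silencing (adjusted p = 1.22e-07). Of the 8 genes listed, 5 of 6 tested were higher in 3D cells and 0 lower, where 32.0% and 31.7% of all genes were. On MUC1 silencing 0 of 7 rose and 4 fell (all genes, 30.7% and 31.6%), with GO-203 0 rose and 3 fell (11.1% and 12.9%), and on MYC silencing 1 rose and 3 fell (30.3% and 28.1%). The list medians were -0.35, -0.08 and -0.33 in these 3 comparisons.

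Steroid and prostaglandin genes cover the substrates of the AKR1C enzymes. PTGS2, the inducible cyclooxygenase that supplies prostaglandin H, was higher in 3D cells by 6.70 ± 0.30 (adjusted p = 9.98e-12) and fell by 4.20 ± 0.12 on MUC1 silencing (adjusted p = 1.2e-16), by 0.64 ± 0.17 with GO-203 (adjusted p = 0.00925) and by 1.19 ± 0.18 on MYC silencing (adjusted p = 0.000222). AKR1C3, which turns prostaglandin H into prostaglandin F, fell in the same 3 comparisons. PTGFR, the receptor for prostaglandin F, fell by 1.57 ± 0.05 on MUC1 silencing (adjusted p = 1.61e-16) but rose by 0.55 ± 0.06 with GO-203 (adjusted p = 1.51e-06) and by 2.03 ± 0.06 on MYC silencing (adjusted p = 6.63e-09). PTGES, a prostaglandin E synthase, was higher in 3D cells by 2.80 ± 0.12 (adjusted p = 3.97e-12) and fell by 1.68 ± 0.07 on MUC1 silencing (adjusted p = 4.73e-14), and it rose by 0.32 ± 0.09 on MYC silencing (adjusted p = 0.0153). SRD5A3, a steroid 5-alpha-reductase family member, rose by 2.26 ± 0.18 on MUC1 silencing (adjusted p = 1.19e-09) and by 1.65 ± 0.23 on MYC silencing (adjusted p = 0.000165). Of 30 genes listed, 5 of 21 tested rose and 12 fell on MUC1 silencing, 2 of 20 rose and 3 fell with GO-203, and 7 of 20 rose and 7 fell on MYC silencing, with medians of -0.27, 0.08 and -0.07. In 3D against 2D cells 10 of 18 were higher and 5 lower. The shares of all genes that rose and fell were 30.7% and 31.6%, 11.1% and 12.9%, and 30.3% and 28.1% in these 3 treatments, near the shares of the list with GO-203 and on MYC silencing, and 32.0% and 31.7% were higher and lower in 3D cells.

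The NRF2 list holds the factor, its regulators and its antioxidant targets. On MYC silencing 11 of 27 tested genes rose and 5 fell, with a median of 0.12, where 30.3% of all genes rose and 28.1% fell. HMOX1, heme oxygenase, rose by 1.61 ± 0.09 (adjusted p = 2.01e-07) and SLC7A11, the cystine transporter, by 1.60 ± 0.13 (adjusted p = 3.85e-06), whereas the exporter ABCC1 fell by 1.28 ± 0.09 (adjusted p = 1.6e-06). On MUC1 silencing 8 of 27 rose and 14 fell (all genes, 30.7% and 31.6%), with a median of -0.14. NFE2L2, which encodes NRF2, fell by 0.85 ± 0.05 there (adjusted p = 2.16e-12) but rose by 0.22 ± 0.07 with GO-203 (adjusted p = 0.0237) and by 0.22 ± 0.06 on MYC silencing (adjusted p = 0.00869). BACH1, a repressor of NRF2 targets, fell by 0.85 ± 0.05 on MUC1 silencing (adjusted p = 4.74e-12) and by 0.53 ± 0.06 with GO-203 (adjusted p = 2.41e-06), where 4 of 26 rose and 6 fell (all genes, 11.1% and 12.9%). SLC7A11 rose there by 0.71 ± 0.07 (adjusted p = 8.93e-08), so it rose in the 3 tested comparisons, while AKR1C3 fell in each. AKR1C1 (log2 change 1.12) and AKR1C2 (1.16) rose with SLC7A11 on MYC silencing. By contrast, AKR1C1 fell on MUC1 silencing (-0.39) and AKR1C2 fell with GO-203 (-0.25). In 3D against 2D cells 13 of 26 were higher and 7 lower (all genes, 32.0% and 31.7%). The largest rises were those of MAFF (log2 change 3.87) and BACH1 (1.86), and NQO1 (0.98) was also higher, in the direction of the AKR1C genes. The largest falls were those of SLC7A11 (-2.63 ± 0.07, adjusted p = 5.93e-15) and ME1 (-1.01), in the opposite direction.

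**Figure D4:**
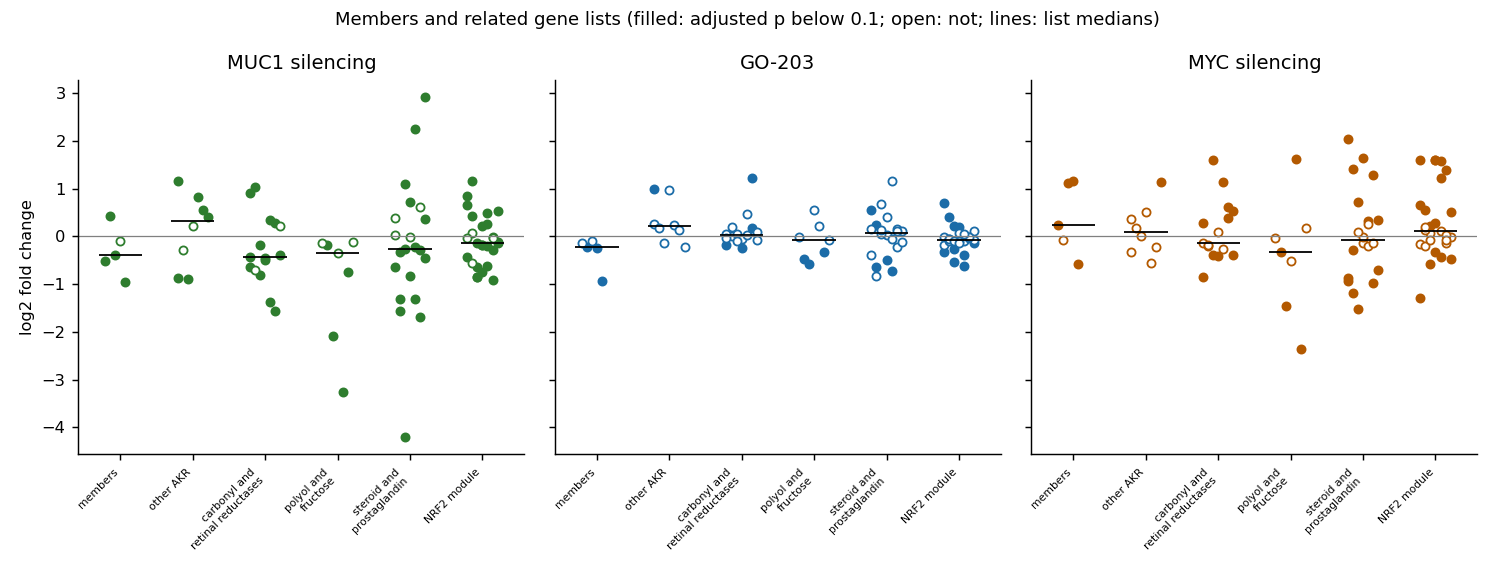
Log2 fold changes of the tested members and of 5 related lists on MUC1 silencing, GO-203 treatment and MYC silencing, with a point for each gene (filled where the adjusted p was below 0.1) and a line at each list median. The medians of the carbonyl and retinal reductases and of the NRF2 list are -0.42 and -0.14 on MUC1 silencing, and the NRF2 median is 0.12 on MYC silencing.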

How the data were processed

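Stranded paired-end mRNA libraries of BT-549 cells were aligned to GRCh38 with STAR and assigned to genes with featureCounts; the submitters' processing notes list CASAVA 1.8.2, STAR 2.7.3a and DESeq2. The authors deposited raw counts per Ensembl gene, without normalization. The annotation release and the handling of reads that match several genes are not given in the sources used here. Of 42339 identifiers, 42252 had a symbol. Blocks of libraries lacked values for 4952 to 7587 genes, and since no gene with a value had a total of 0 in its block (for GO-203, together with the 3D libraries), these were read as 0.

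The members and lists were chosen with earlier results of these data known. Libraries of each comparison were filtered with filterByExpr, scaled by TMM and tested with edgeR 4.0.16 (quasi-likelihood, R 4.3.3) with Benjamini-Hochberg adjustment over all genes, and genes passed at an adjusted p below 0.1. Levels are CPM with TMM factors over 21 libraries. Nothing in the labels ties the replicates to separate experiments beyond triplicate culture, so p-values measure the spread between these cultures. Counting error was small for the 5 tested genes and limits AKR1B10 and the 2D values of AKR1C genes. The floors of 3 counts cover counting error only, whereas the SDs and SEs include the spread between libraries.

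Named genes were the 6 members, for each member with a mean count of at least 100 the 3 genes of highest likeness over 21 and over 18 libraries, and MUC1 and MYC as a check. Of the lists, those among the 2 largest rises and 2 largest falls that passed with a mean count of at least 100 could be named. KCNAB3, AKR7L and AKR1C4 have lower counts and were named on MUC1 silencing after their values were seen. KRT8, CLDN4, PECAM1, CDH5 and the mesenchymal genes are from the marker lists, and KRT8 and CLDN4 were named after their values were seen. Alternatives were DESeq2 1.42.0, RLE factors, library size alone, no filter beyond 1 count, the replicate block, a single fit over 21 libraries, a threshold of 0.05, leaving out each library, other gene lengths, Spearman correlation and a pseudocount of 0.1. The fits were tested on simulated data. Sequences were read from GENCODE 44 and RefSeq and aligned with Biopython.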

Additional observations from a re-analysis of the deposited data

Results flagged for a closer look

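DOX against vehicle had different effects in the tet-MUC1shRNA and tet-MYCshRNA lines by the interaction test (edgeR's quasi-likelihood test, adjusted over all genes). The difference in log2 effect was -1.52 ± 0.08 (SE) for AKR1C1, -1.26 ± 0.13 for AKR1C2, -0.40 ± 0.14 for AKR1C3, 0.48 ± 0.09 for AKR1B1, -0.77 ± 0.10 for AKR1A1 and -1.23 ± 0.08 for the AKR1C sum (adjusted p = 1.19e-09). With library size alone the AKR1C3 difference was -0.20 and did not pass (adjusted p = 0.229). The vehicle-treated mammospheres of the lines already differed, in AKR1B1 (421 against 162 CPM) and AKR1C1 (137 against 64.3 CPM), and how far this base level bears on the differences was not tested.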

How the results depend on the processing

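The number of members passing stayed within 1.5 times the main count in every alternative, and leaving out 1 library gave 4 to 5 with a fold change above 0 in 3D against 2D cells (AKR1A1 from -0.17 to 0.0021), and 4 to 4 passing on MUC1 silencing, 3 to 3 with GO-203, 3 to 4 on MYC silencing, 5 to 5 for the interaction and 3 to 4 for GO-203 against silencing. With library size alone the median log2 change of all genes on MUC1 silencing moved from 0.02 to 0.19 and the share of calls that were higher from 49.3% to 64.4%, while this share moved from 49.1% to 61.2% for the interaction and from 53.6% to 38.4% for GO-203 against silencing. AKR1C2 then had 0.080, AKR1C1 -0.22 and the AKR1C sum -0.24 on MUC1 silencing (main values -0.09, -0.39 and -0.40), and for GO-203 against silencing AKR1C3 had -0.13 and the AKR1C sum -0.035, where the main value was 0.12 and the median of all genes moved from 0.003 to -0.15. AKR1C1 lost its call in that contrast (0.14, adjusted p = 0.147) and AKR1C2 gained one (-0.32, adjusted p = 0.00227), while AKR1A1 moved from 0.39 to 0.23; AKR1C2 also gained its call without tet-MUC1shRNA DOX replicate 3 (-0.22). AKR1C3 in that contrast, not called in any fit, was -0.0010 without a filter and between -0.051 and 0.11 when 1 library was left out. The labels number the replicates but do not say what the numbers share, and same-number libraries did not deviate together in every pair (correlations from -0.41 to 0.21, and in GO-203 every library was nearest to its own number), so the replicate block was an alternative only. With all 21 libraries in one fit 5 members passed on MYC silencing, AKR1B10 among them (adjusted p = 0.095). With the replicate block 3 members passed on MYC silencing, since AKR1A1 lost its call (0.23, adjusted p = 0.125), and 4, 3, 5 and 3 passed on MUC1 silencing, with GO-203, for the interaction and for GO-203 against silencing. Of the 30 likeness pairs, 2 were kept with Spearman correlation and 22 with a pseudocount of 0.1. Across all genes, calls beyond a log2 of 1.5 with GO-203 numbered 140, but 62 with DESeq2, 212 without a filter and 254 with all 21 libraries in one fit, and on MUC1 silencing 1695, but 2606 without a filter. The cause of these changes was not tested.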
